A study of Mus musculus with 7 samples.

Results

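The interleukin-1 (IL-1) family of cytokines, its decoys and its receptors were examined in the transcriptome of cancer-associated fibroblasts (CAFs). 10 genes were chosen by symbol: the ligands Il1a, Il1b, Il33 and Il18, the antagonists Il1rn and Il18bp, and the receptor chains Il1r1, Il1rap, Il1rl1 and Il1rl2. Of these, 9 were among the 12771 genes listed in the count table, and Il1a was not analysed here. CAFs came from orthotopic pancreatic tumors in male C57BL/6 mice (substrain C57BL/6J) that were 8 weeks old at injection. Tumors were taken 2 to 3 weeks later. The CAFs were sorted live as PDPN+ cells that lacked CD45, CD31 and EpCAM. The mice had been injected with KPC, a line of mouse pancreatic cancer cells, in which a lentiviral hairpin silenced Brca2 (shBrca2) or matched no target (shControl), under puromycin selection in both cases. The hairpin was in the cancer cells and not in the CAFs, and no engineered allele is named for the host mice. Poly(A) RNA was read at its 3' end with a bulk variant of MARS-seq. The shControl group held 3 libraries, numbered 1, 2 and 4, and the shBrca2 group 4, numbered 1 to 4.

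IL-1α and IL-1β bind the receptor IL-1R1, which must recruit the accessory protein IL-1RAcP, encoded by Il1rap, before it can signal through MyD88 and IRAK kinases to NF-κB. IL-33 acts through ST2 (Il1rl1) and IL-36 through Il1rl2, both with that same accessory protein, whereas IL-18 uses a receptor pair of its own, Il18r1 and Il18rap. In pancreatic tumors IL-1 is known for inducing the inflammatory state of CAFs, in which they secrete cytokines and chemokines.

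Total counts ran from 1898679 to 5990579 per library, and all pairs of libraries differed by more than sampling noise. The table was fitted whole with DESeq2, and calls required an adjusted p under 0.1, a change of more than 0.5 in absolute log2 units and a mean normalized count over 5. By this rule 481 genes were called higher in shBrca2 CAFs (3.77% of the 12768 tested) and 673 lower (5.27%), together 9.04%. Fold changes are shBrca2 over shControl. The 9 listed CAF markers summed to between 74949 and 80646 normalized counts in shControl and between 63540 and 68394 in shBrca2. Dcn and Lum were called lower, and Dcn alone averaged 20576 in shControl and 12091 in shBrca2. The other 7 CAF markers were not called, and the median log2 fold change of the 9 was -0.09. Among the 7 was Pdpn, the marker of the sort, at -0.25 (DESeq2 adjusted p = 0.42). It was lower in every shBrca2 library than in any shControl library. Markers of other cells also moved with the groups. The 7 listed of 8 macrophage markers summed to 319 to 391 in shControl and 556 to 613 in shBrca2, with Csf1r, C1qa and Cd14 called higher and Adgre1 not listed. The other 4 were not called, with Cd68 at -0.32, Lyz2 at -0.26, C1qb at 0.69 and Mrc1 at 0.87 on the log2 scale. The 5 listed of 7 epithelial markers summed to 384 to 1139 and 1433 to 2017, with Krt8, Krt18, Krt19 and Krt7 called higher and Epcam not listed. Cdh1, the other listed one, was not called, at 1.59 on the log2 scale (DESeq2 adjusted p = 0.19). Every shBrca2 library lay above every shControl library in Cdh1, at 1 to 17 raw counts. Of the 3 pan-leukocyte markers 2 were listed, without Ptprc, at sums of 11.4 to 32.1 and 8.64 to 19.8. The 7 mesothelial markers, at 788 to 2422 and 1756 to 2206, and the 3 listed of 5 endothelial markers, at 66.6 to 115 and 81.2 to 111, held no called gene. Of the mesothelial log2 fold changes 5 were above 0 and 2 below, with a median of 0.70. Msln (0.89, DESeq2 adjusted p = 0.44) was higher in every shBrca2 library than in any shControl library. Most of the endothelial sum was Kdr, at 0.51 on the log2 scale. Pecam1 (-3.6, DESeq2 adjusted p = 0.031) and Tek (-1.55, 0.12) were lower in every shBrca2 library than in any shControl library. Pecam1 missed a call because its mean normalized count, 3.87, was under 5. The part of these other cells in the values below was not tested, and in bulk RNA fewer cells of a type and less RNA per cell cannot be told apart.

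Among the 9 measured family genes Il1rap rose in shBrca2 CAFs, none was called lower and 8 were not called. This is 1 gene of 9, near the 9.04% called over all genes. The same gene is the 1 called higher, against 3.77% of all genes, and the 0 called lower stand against 5.27%. Of the 9 genes, 2 (Il1rap and Il1r1) had a DESeq2 adjusted p under 0.1 at any fold, against 9.79% of all genes. For Il1rn, Il1r1 and Il1rap every shBrca2 library lay above every shControl library, which is 3 genes of 9 against 7.79% of all genes. The median log2 fold change of the 9 genes was 0.38 and that of all genes was 0.01. Values were above 0 for 7 of the 9 and below 0 for Il1rl1 and Il18bp.

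**Figure D1:**
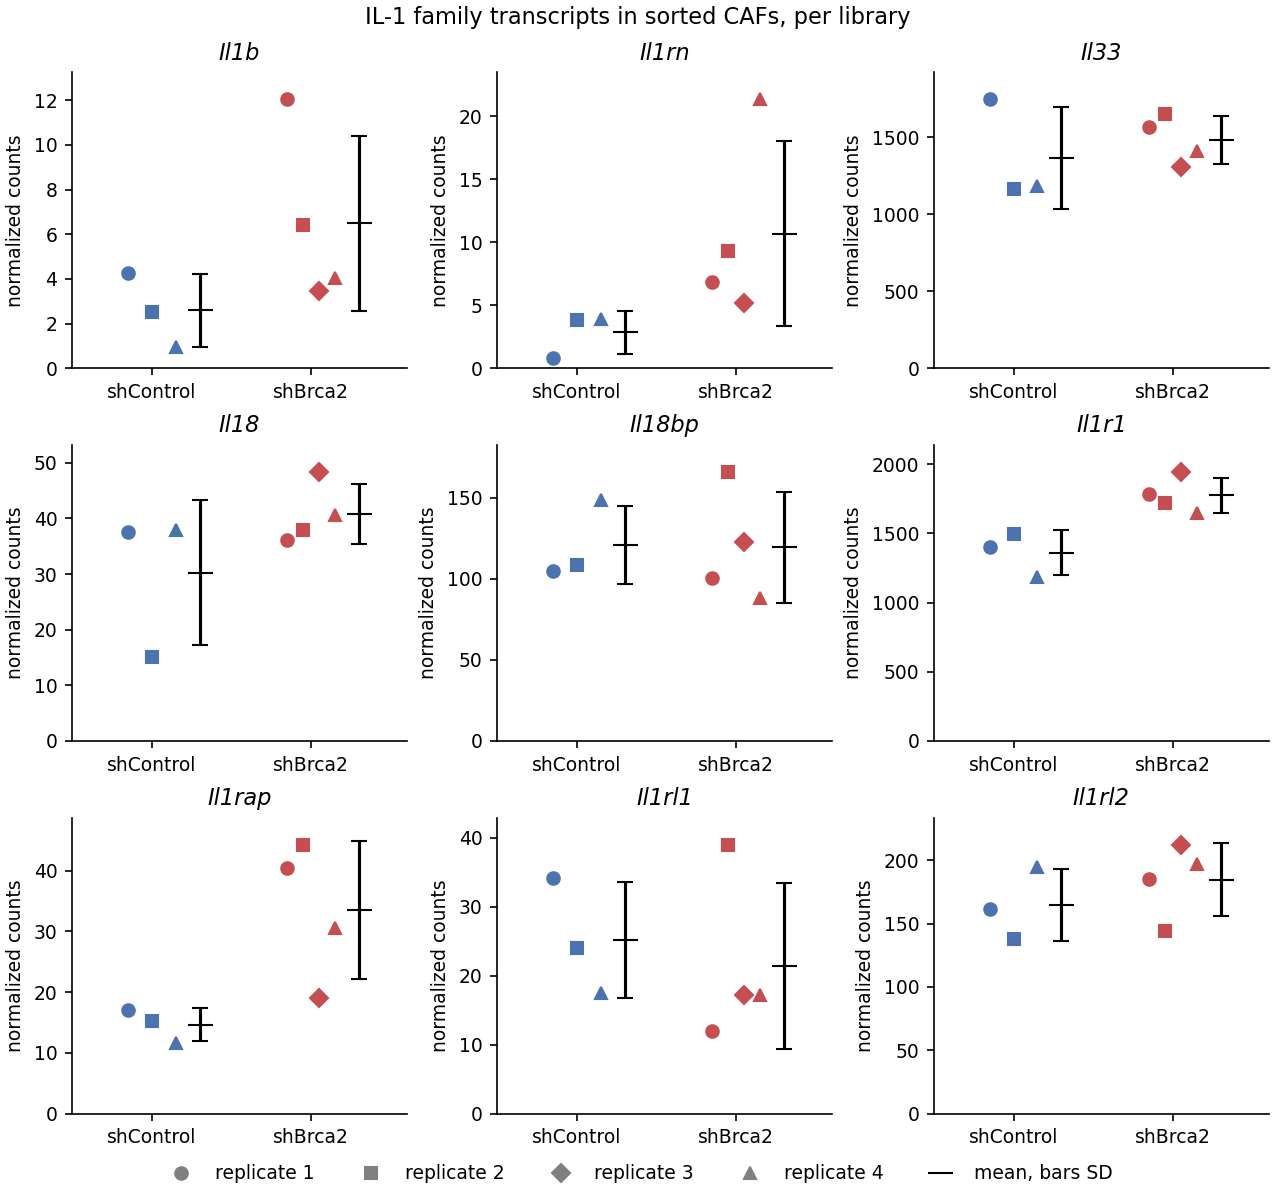
Normalized counts of the 9 measured IL-1 family genes in each library, from 0 on a linear axis, with shControl in blue and shBrca2 in red, the marker shape giving the replicate number and black bars the mean ± SD (n = 3 and n = 4). The groups do not overlap in Il1rn, Il1r1 and Il1rap and overlap in the other 6 genes.

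Promoter sequences are shown first for the 3 genes whose libraries did not overlap. They are RefSeq windows on GRCm38.p6, the same coordinates as mm10, of 250 bases before to 50 after a transcript start. That start need not be the outermost base of the gene: in Il1r1 and Il1rap it lies inside the gene bounds given below. All 10 family genes matched, with 15 windows. Each window was searched on both strands for the NF-κB motif (by name), the AP-1 motif TGANTCA and the hypoxia response core ACGTG. The motifs share no match, and capitals mark what was found. The first window of Il1rap lies at chr16:26581455-26581754 on the plus strand, the first of Il1rn at chr2:24336610-24336909 on the plus strand, and both windows of Il1r1 at chr1:40224830-40225129 and chr1:40266336-40266635 on the plus strand.
Il1rap: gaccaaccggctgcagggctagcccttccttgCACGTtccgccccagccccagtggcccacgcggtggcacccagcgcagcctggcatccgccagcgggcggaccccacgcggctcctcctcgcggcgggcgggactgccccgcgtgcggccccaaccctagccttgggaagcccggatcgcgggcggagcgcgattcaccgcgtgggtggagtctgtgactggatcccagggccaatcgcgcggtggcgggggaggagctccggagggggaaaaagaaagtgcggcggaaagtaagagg
Il1rn: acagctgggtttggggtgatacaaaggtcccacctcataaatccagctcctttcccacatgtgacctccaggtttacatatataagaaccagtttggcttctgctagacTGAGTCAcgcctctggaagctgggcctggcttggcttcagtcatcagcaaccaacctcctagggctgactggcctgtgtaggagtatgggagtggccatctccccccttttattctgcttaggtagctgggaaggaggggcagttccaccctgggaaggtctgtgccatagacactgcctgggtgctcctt
Il1r1 first start: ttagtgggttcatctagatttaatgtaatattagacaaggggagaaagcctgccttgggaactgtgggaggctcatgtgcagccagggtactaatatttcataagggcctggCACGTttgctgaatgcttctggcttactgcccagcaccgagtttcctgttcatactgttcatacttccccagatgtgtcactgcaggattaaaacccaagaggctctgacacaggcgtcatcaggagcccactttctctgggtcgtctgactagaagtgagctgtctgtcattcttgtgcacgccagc
Il1r1 second start: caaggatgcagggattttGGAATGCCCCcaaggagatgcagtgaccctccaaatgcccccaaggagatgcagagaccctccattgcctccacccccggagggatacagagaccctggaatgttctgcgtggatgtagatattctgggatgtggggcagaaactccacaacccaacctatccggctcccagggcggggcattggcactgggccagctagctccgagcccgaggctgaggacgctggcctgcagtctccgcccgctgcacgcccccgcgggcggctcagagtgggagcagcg
In Il1rap the hypoxia core, here as its reverse complement CACGT, lay 218 to 214 bases before the start. Il1r1 held the same letters 138 to 134 bases before its first start and an NF-κB match 232 to 223 bases before its second. Il1rn held an AP-1 match 141 to 135 bases before its first start, and the only other family gene with a match was Il1a, with AP-1 at 12 to 6 bases. Over all 32851 mouse windows, 19.6% held the hypoxia core, 8.46% the NF-κB motif and 7.81% the AP-1 motif. Of the 15 family windows, 2 held the core, 1 the NF-κB motif and 2 the AP-1 motif. These are matches of letters and not measured binding.

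Il1rap (chromosome 16, 26581509 to 26730128, plus strand, GRCm38.p6) encodes the accessory chain that IL-1R1, ST2 and the IL-36 receptor share. Normalized counts were 17.1, 15.2 and 11.7 in the shControl libraries (replicates 1, 2, 4). They were 40.4, 44.3, 19.0 and 30.5 in replicates 1 to 4 of shBrca2. All shBrca2 libraries were above all shControl libraries, and shBrca2 replicate 3, the shallowest library, lay closest to the controls. The means were 14.6 ± 2.74 (SD, n = 3) and 33.6 ± 11.3 (SD, n = 4). Il1rap rose 2.35-fold, a log2 fold change of 1.24 (SE 0.40) with a 95% interval from 0.45 to 2.02 and a DESeq2 adjusted p of 0.034. Raw counts behind it were low, from 11 to 76 per library. The call rested on single libraries. It was lost without shControl replicate 1 (DESeq2 adjusted p = 0.11), without shControl replicate 4 (0.22), without shBrca2 replicate 1 (0.21) and without shBrca2 replicate 2 (0.21), while the log2 fold change stayed between 1.06 and 1.40. In the annotation 1425 of its 15282 exon bases lie opposite an exon of Gm20319, and whether the counting used strand is not given in the sources used here. Reads per gene do not separate its membrane and soluble forms.

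The genes whose pattern over the 7 libraries was most like that of Il1rap were Prkar1a, a regulatory subunit of protein kinase A (Pearson r = 0.985 of log2 normalized counts), Eaf1, a transcription elongation factor (r = 0.983), and Hspa8, the constitutive HSC70 chaperone (r = 0.972). They were the highest of 9061 genes compared, the 7 points share the library and the group difference, and none of these genes was called. For Hspa8 the libraries ran from 3249 to 3898 in shControl and from 3817 to 4773 in shBrca2.

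Il1r1 (chromosome 1, 40222480 to 40316201, plus strand) is the signaling receptor for IL-1α and IL-1β. Its normalized counts were 1400.0, 1498 and 1184 in the shControl libraries (replicates 1, 2, 4), and 1784, 1720.1, 1945 and 1649 across shBrca2 (replicates 1 to 4). The groups did not overlap. The means were 1361 ± 161 (SD, n = 3) and 1774 ± 126 (SD, n = 4). Its log2 fold change was 0.38 (SE 0.15) with a 95% interval from 0.10 to 0.67 and a DESeq2 adjusted p of 0.095. The adjusted p was under 0.1 and the fold change under 0.5, so Il1r1 was not called. It was not called in any of its 14 alternative fits, where the log2 fold change ran from 0.29 to 0.45 and the DESeq2 or edgeR adjusted p from 0.08 to 0.65. The decoy receptor Il1r2, which binds IL-1 without signaling, had 114, 140.4 and 51.6 normalized counts in shControl and 93.8, 109.6, 107 and 119 in shBrca2. The groups overlapped, and its log2 fold change was 0.08 with a 95% interval from -0.52 to 0.68 (DESeq2 adjusted p = 0.94). The log2 ratio of Il1r2 to Il1r1 counts averaged -3.84 ± 0.58 (SD, n = 3) over the controls and -4.04 ± 0.21 (SD, n = 4) over shBrca2. The difference, -0.20, was within the spread of the controls and ran from -0.53 without shControl replicate 4 to 0.02 without shControl replicate 2.

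Il1b (chromosome 2, 129364569 to 129371164, minus strand) encodes the secreted ligand IL-1β. Normalized counts were 4.27, 2.53 and 0.973 in the shControl libraries (replicates 1, 2, 4), and 12.05, 6.41, 3.45 and 4.07 across shBrca2 (replicates 1 to 4). The groups overlapped, and shBrca2 replicate 1 was highest. The log2 fold change was 1.35 (SE 0.85) with a 95% interval from -0.32 to 3.01 (DESeq2 adjusted p = 0.43). Raw counts were 1 to 14 per library, and the interval spans both no change and a large rise. Its mean over all libraries was under the count threshold of a call, and 95 of its 2601 exon bases lie opposite an exon of Il1bos.

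Il1rn (chromosome 2, 24336860 to 24351491, plus strand) encodes the IL-1 receptor antagonist, which occupies IL-1R1 without recruiting the accessory chain. Its normalized counts were 0.854, 3.8 and 3.89 in the shControl libraries (replicates 1, 2, 4), and 6.88, 9.33, 5.18 and 21.3 across shBrca2 (replicates 1 to 4). The groups did not overlap, and shBrca2 replicate 4 was well above the other libraries. The means were 2.85 ± 1.73 (SD, n = 3) and 10.7 ± 7.31 (SD, n = 4). The log2 fold change was 1.98 (SE 0.79) with a 95% interval from 0.42 to 3.53. Its unadjusted p was 0.012 and its DESeq2 adjusted p 0.11, so it was not called. Without shBrca2 replicate 3 it was called, at a log2 fold change of 2.16 and a DESeq2 adjusted p of 0.09. Raw counts were 1 to 21 per library. Neutrophils and macrophages also make this transcript. In shBrca2 replicate 4, where Il1rn was highest, the 3 listed of 6 neutrophil markers summed to 11.2 normalized counts. The macrophage markers summed to 556 there, above every shControl library (319 to 391) but the lowest sum within shBrca2. shBrca2 replicate 3 had the highest macrophage sum, 613, and the lowest Il1rn of its group, 5.18. The 5 listed epithelial markers had their highest sum, 2017, in shBrca2 replicate 4. Their lowest sum within shBrca2, 1433, was in replicate 2, where Il1rn was 9.33. The part of neutrophils, macrophages or epithelial cells in the Il1rn value was not tested. The highest neutrophil sum was 110.7, in shBrca2 replicate 2, and the other libraries lay between 2.92 and 11.2. The log2 ratio of Il1rn to Il1b averaged 0.08 ± 1.44 (SD, n = 3) over the controls and 0.59 ± 1.18 (SD, n = 4) over shBrca2. The difference, 0.51, was smaller than the spread within either group and ran from -0.28 without shControl replicate 1 to 1.12 without shControl replicate 4. Among fits without a shBrca2 library it was lowest, -0.01, without replicate 4 and highest, 0.95, without replicate 1.

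**Figure D2:**
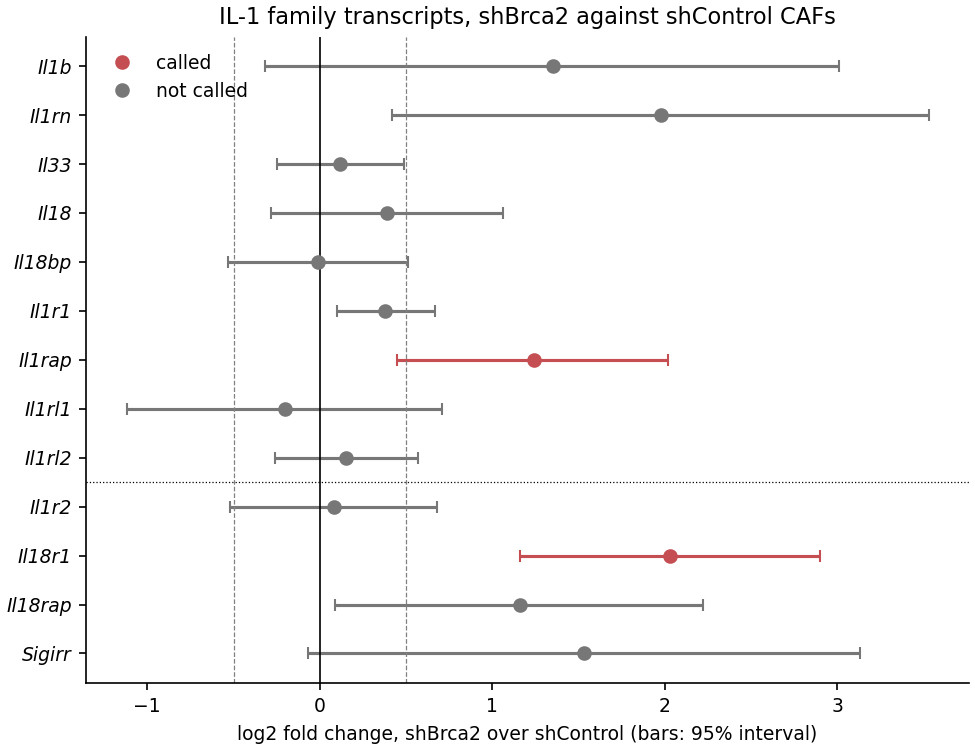
Log2 fold change (shBrca2 over shControl) of the 9 measured family genes, above the dotted line, and of the 4 further family genes listed, below it, with 95% intervals as bars, called genes in red and dashed lines at -0.5 and 0.5. Il1rap (1.24) and Il18r1 (2.03) are called, and the intervals of Il1rn, Il1r1 and Il18rap also lie above 0.

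Il33 (chromosome 19, 29925113 to 29960718, plus strand) encodes a nuclear cytokine that damaged barrier and stromal cells release. Normalized counts were 1746, 1161 and 1182 in the shControl libraries (replicates 1, 2, 4), and 1565, 1648, 1304 and 1411 across shBrca2 (replicates 1 to 4). All shBrca2 libraries lay inside the range of the controls. The log2 fold change was 0.12 with a 95% interval from -0.25 to 0.49 (DESeq2 adjusted p = 0.84), and without shControl replicate 1, the highest library, it was 0.34. Of its 6180 exon bases, 159 lie opposite an exon of Gm41832. Il1rl1 (chromosome 1, 40404864 to 40465418, plus strand) encodes ST2, the receptor of IL-33, in a membrane form and a soluble decoy form that counts per gene do not separate. It had 34.2, 24.0 and 17.5 normalized counts in shControl and 12.05, 39.1, 17.3 and 17.3 in shBrca2. The highest and the lowest library were both shBrca2. Its log2 fold change was -0.20 with a 95% interval from -1.12 to 0.71 (DESeq2 adjusted p = 0.89), and its sign turned when shControl replicate 1 (0.09) or shBrca2 replicate 1 (0.01) was left out.

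Il1rl2 (chromosome 1, 40324589 to 40367555, plus strand), the receptor of the IL-36 cytokines, had 161, 138 and 195 normalized counts in shControl and 185, 145, 212 and 197 in shBrca2. The groups overlapped over most of their range. The log2 fold change was 0.15 with a 95% interval from -0.26 to 0.57 (DESeq2 adjusted p = 0.80). The IL-36 ligands Il36a, Il36b and Il36g and their antagonist Il36rn were not listed and were not analysed here.

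Il18 (chromosome 9, 50554700 to 50581841, plus strand) encodes a cytokine that, like IL-1β, needs cleavage by caspase-1. Its normalized counts were 37.6, 15.2 and 37.9 in the shControl libraries (replicates 1, 2, 4), and 36.1, 37.9, 48.4 and 40.7 across shBrca2 (replicates 1 to 4). The groups overlapped, with only shControl replicate 2 set apart on the low side. The log2 fold change was 0.39 with a 95% interval from -0.28 to 1.06 (DESeq2 adjusted p = 0.64), and it was 0.09 without shControl replicate 2. Il18bp (chromosome 7, 102015074 to 102018232, minus strand) encodes the secreted protein that binds and blocks IL-18. It had 105, 109 and 149 normalized counts in shControl and 101, 166, 123 and 88.4 in shBrca2, so the shControl libraries lay inside the shBrca2 range. The log2 fold change was -0.01 with a 95% interval from -0.53 to 0.51 (DESeq2 adjusted p = 0.97), and 446 of its 4967 exon bases lie opposite exons of Numa1. The log2 ratio of Il18bp to Il18 averaged 2.06 ± 0.66 (SD, n = 3) over the controls and 1.5 ± 0.43 (SD, n = 4) over shBrca2. The difference, -0.56, was within the spread of the controls and ran from -0.86 without shControl replicate 1 to -0.21 without shControl replicate 2.

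The rest of the family was then examined from a list of 11 genes, of which 4 were listed. Among these Il18r1 rose, none was called lower, and Il18rap, Sigirr and Il1r2 were not called. This is 1 of 4, where 3.77% of all genes were called higher. The median log2 fold change of the 4 was 1.34, against 0.01 for all genes. Il18r1 (chromosome 1, 40465552 to 40500854, plus strand) encodes the IL-18-binding chain of the IL-18 receptor. Normalized counts were 4.27, 12.7 and 10.7 in the shControl libraries (replicates 1, 2, 4), and 28.4, 30.9, 50.1 and 39.6 across shBrca2 (replicates 1 to 4). Each shBrca2 library was more than double the highest control. The means were 9.21 ± 4.38 (SD, n = 3) and 37.3 ± 9.82 (SD, n = 4), and the log2 fold change was 2.03 ± 0.44 (SE, DESeq2 adjusted p = 0.00027). It was called in 14 of 14 alternative fits, with log2 fold changes from 1.65 to 2.31 and DESeq2 or edgeR adjusted p between 0.00017 and 0.05, although raw counts were only 5 to 53 per library. Of 6 T cell and innate lymphoid markers only Gata3 was listed, at 0 to 2.92 normalized counts in shControl and 1.17 to 10.2 in shBrca2. Of 5 mast cell markers 2 were listed, with Kit, Cpa3 and Mcpt4 not listed. The sum of the 2, nearly all Hdc, was 58.1 to 232 in shControl and 353 to 530.2 in shBrca2. Hdc was called higher (1.57 on the log2 scale, DESeq2 adjusted p = 0.00096). Tpsb2, the other listed marker, had 7 raw counts in shBrca2 replicate 1 and none in any other library.

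Il18rap, the signaling partner of Il18r1, had 3.42, 27.8 and 10.7 normalized counts in shControl and 18.1, 34.4, 41.5 and 27.4 in shBrca2. shControl replicate 2 lay among the shBrca2 libraries. Its log2 fold change was 1.16 with a 95% interval from 0.09 to 2.22 (DESeq2 adjusted p = 0.24). Sigirr, an inhibitory receptor of the family, had 0.854, 1.27 and 5.84 normalized counts in shControl and 4.30, 8.16, 8.64 and 10.2 in shBrca2, and stood at 1.53 on the log2 scale with a 95% interval from -0.07 to 3.13 (DESeq2 adjusted p = 0.30). The groups overlapped in both genes.

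6 of the receptor genes stand next to each other on chromosome 1, from 40084692 to 40551707, a span of 467 kb in the order Il1r2, Il1r1, Il1rl2, Il1rl1, Il18r1 and Il18rap, all on the plus strand. Their log2 fold changes in that order were 0.08, 0.38, 0.15, -0.20, 2.03 and 1.16. Only Il18r1 was called. Its start lies 133 bases after the end of Il1rl1, whose groups overlapped. Differences between neighbouring genes were not tested.

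**Figure D3:**
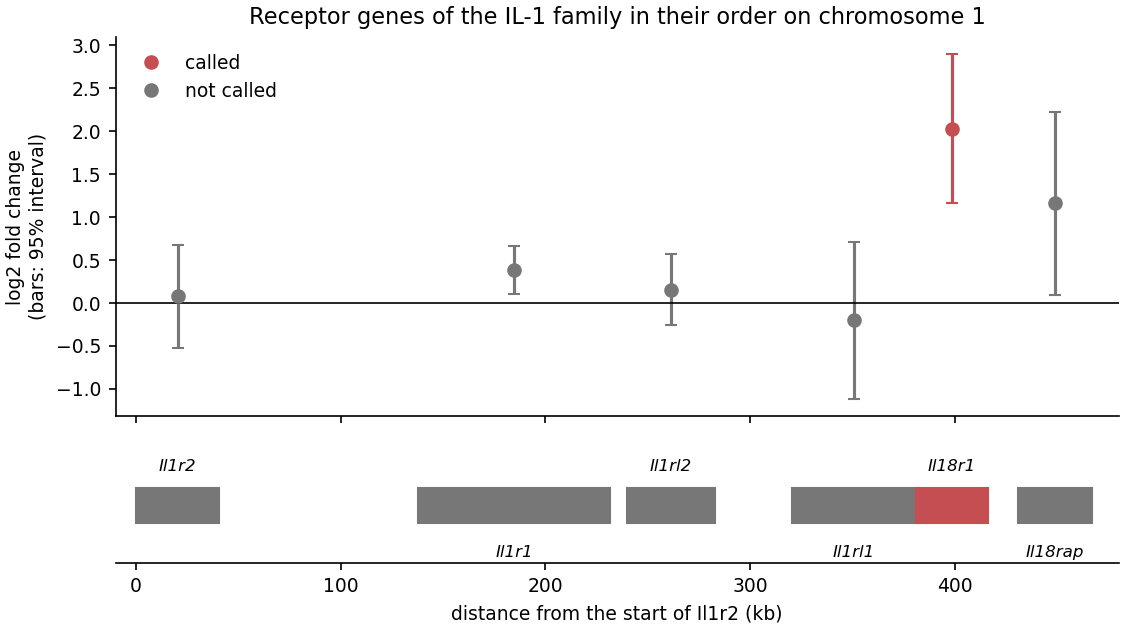
Log2 fold change (shBrca2 over shControl, bars 95% interval) of the 6 receptor genes on chromosome 1, placed by their distance in kb from the start of Il1r2, with the genes to scale below and the called gene in red. Il18r1 (2.03) is called, while Il1rl1 directly before it is at -0.20.

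Genes that carry the signal inside the cell were compared from lists of adapters and kinases, of release and processing factors, and of NF-κB proteins. In the receptor signaling list 17 of 17 genes were listed, none was called higher and Irak3 and Peli2 fell, with a median log2 fold change of -0.13. These 2 of 17 stand against 9.04% called over all genes, 5.27% of them lower, as do the 1 of 10 and 1 of 14 in the lists that follow. Irak3 encodes IRAK-M, a brake on IRAK signaling. It had 152, 94.9 and 149.8 normalized counts in shControl and 66.3, 96.8, 51.8 and 48.8 in shBrca2, where replicate 2 overlapped the lowest control. Its log2 fold change was -0.99 ± 0.30 (SE, DESeq2 adjusted p = 0.017), and the call was lost without shControl replicate 1 (0.13) and without shControl replicate 4 (0.11). Peli2, an E3 ubiquitin ligase that binds IRAK complexes, had -0.97 ± 0.36 (SE) on the log2 scale (DESeq2 adjusted p = 0.076). It was called in 1 of the 7 fits without a library, the one without shControl replicate 2, and its adjusted p otherwise ran from 0.12 to 0.50. Myd88, the adapter of all these receptors, was at -0.22 on the log2 scale, with a 95% interval from -0.59 to 0.15.

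Of the 15 release and processing genes 10 were listed, none was called higher and Prtn3, a neutrophil serine protease that can cleave IL-1 family cytokines, was called lower, and the list's median log2 fold change was -0.16. Prtn3 had -0.79 ± 0.28 (SE) on the log2 scale (DESeq2 adjusted p = 0.062) and was called in 1 of the 7 fits without a library, that without shControl replicate 1, with adjusted p from 0.12 to 0.31 in the others. Casp1, the protease that matures IL-1β and IL-18, was at -0.29 on the log2 scale, with a 95% interval from -1.17 to 0.59. Of the 14 NF-κB subunits and inhibitors all 14 were listed, none was called higher and Bcl3, a nuclear IκB protein, was called lower, with a median of 0.06. Its log2 fold change was -0.52 ± 0.20 (SE, DESeq2 adjusted p = 0.095). The call was lost without shControl replicate 1 (0.17), shControl replicate 4 (0.44), shBrca2 replicate 1 (0.42) and shBrca2 replicate 4 (0.34), and in edgeR (adjusted p = 0.12).

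Genes that IL-1 is known to induce in fibroblasts did not move in a single direction. Of 27 such genes 25 were listed, with 4 called higher, 8 called lower and 13 not called, and a median log2 fold change of -0.57 against 0.01 over all genes. Over all genes 3.77% were called higher and 5.27% lower. The higher genes were Csf3, Vcam1, Ch25h and Cxcl5. Csf3, the neutrophil growth factor G-CSF, had 17.9, 41.7 and 47.7 normalized counts in shControl and 83.5, 138, 82.9 and 124 across shBrca2 (replicates 1 to 4). The groups did not overlap, at 1.61 ± 0.34 (SE) on the log2 scale (DESeq2 adjusted p = 0.00035). Vcam1, an adhesion molecule for leukocytes, had 211, 185 and 202 normalized counts in shControl and 449, 420, 342 and 356 in shBrca2, without overlap, at 0.98 ± 0.17 (SE) on the log2 scale (DESeq2 adjusted p = 5e-06). Both were called in 14 of 14 alternative fits. Ch25h, which makes 25-hydroxycholesterol, differed by 0.71 on the log2 scale (DESeq2 adjusted p = 0.044). Its call was lost without shControl replicate 1 (0.33), shControl replicate 4 (0.21), shBrca2 replicate 1 (0.23) or shBrca2 replicate 4 (0.16). Cxcl5, a neutrophil chemokine, differed by 0.69 on the log2 scale (DESeq2 adjusted p = 0.095), and its call was lost in edgeR (adjusted p = 0.12) and without shControl replicate 1 (0.22), shControl replicate 4 (0.41), shBrca2 replicate 1 (0.20), shBrca2 replicate 2 (0.11) or shBrca2 replicate 4 (0.29).

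The lower genes were Mmp3, Has1, Cxcl1, Ptges, Csf1, Ccl7, Cxcl10 and Icam1. Mmp3, the matrix protease stromelysin-1, had 1585, 1195 and 1035 normalized counts in shControl and 510.3, 709.9, 580.3 and 437 in shBrca2. The groups did not overlap, at -1.18 ± 0.22 (SE) on the log2 scale (DESeq2 adjusted p = 7e-06). Csf1, the macrophage growth factor, had 1763, 2292 and 1837 normalized counts in shControl and 933, 1339, 826 and 1035 in shBrca2, again without overlap, at -0.92 ± 0.20 (SE) on the log2 scale (DESeq2 adjusted p = 0.00023). Ptges, the inducible prostaglandin E synthase, differed by -0.94 on the log2 scale (DESeq2 adjusted p = 0.0018) and did not overlap either. These 3 genes were called in 14 of 14 alternative fits. Has1, a hyaluronan synthase, differed by -1.17 on the log2 scale (DESeq2 adjusted p = 0.011) and was called in 13 of 14 alternative fits, among them 7 of 7 without a library, although its groups overlapped. Ccl7, Cxcl10 and Icam1 ran from -0.85 to -0.76, each with groups that overlapped. Cxcl1, a neutrophil chemokine, had 7254, 4697 and 7361 normalized counts in shControl and 1589, 5777, 2637 and 2038 in shBrca2. shBrca2 replicate 2 overlapped the controls. The log2 difference was -1.10 (DESeq2 adjusted p = 0.042), with an edgeR adjusted p of 0.11. Leaving out shBrca2 replicate 2 gave -1.63 (DESeq2 adjusted p = 2.9e-09), and the call was lost without each of the other 6 libraries in turn, at adjusted p from 0.13 to 0.55. Il6 was at -0.97 on the log2 scale, with a 95% interval from -2.21 to 0.27 (DESeq2 adjusted p = 0.46), and without shBrca2 replicate 2 it was -1.58 (DESeq2 adjusted p = 4e-05). Lif was at 0.12 on the log2 scale (DESeq2 adjusted p = 0.93).

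**Figure D4:**
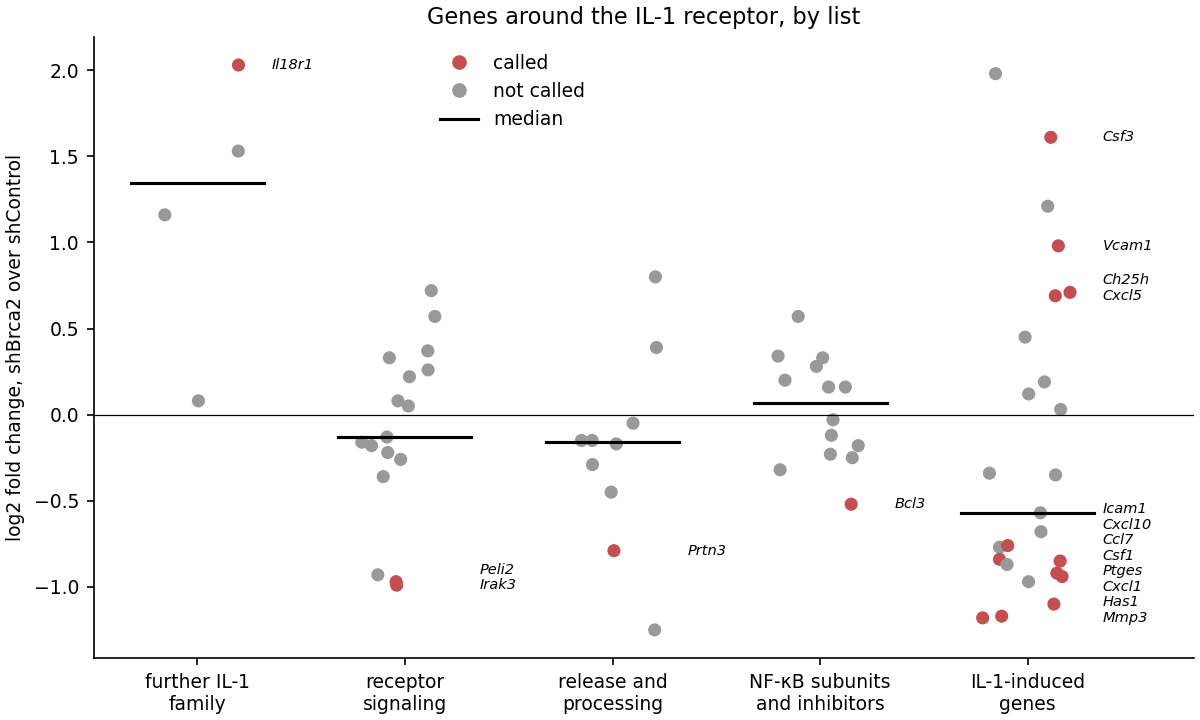
Log2 fold change (shBrca2 over shControl) of each listed gene in 5 lists around the IL-1 receptor, 1 point a gene, with called genes in red and named at the right of their column and the median of each list as a black line. The list of IL-1-induced genes holds 4 genes called higher and 8 called lower.

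The weight of single libraries was compared for the 4 receptor and antagonist genes with the largest or least overlapping differences. The direction of Il1rap, Il1rn, Il1r1 and Il18r1 was higher in shBrca2 in all 7 fits without a library. In these 4 genes the groups do not overlap, so leaving out a library could hardly turn the direction. The agreement in direction is therefore no separate support. Il18r1 was called in 7 of these, Il1rap in 3, Il1rn in 1 and Il1r1 in 0.

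**Figure D5:**
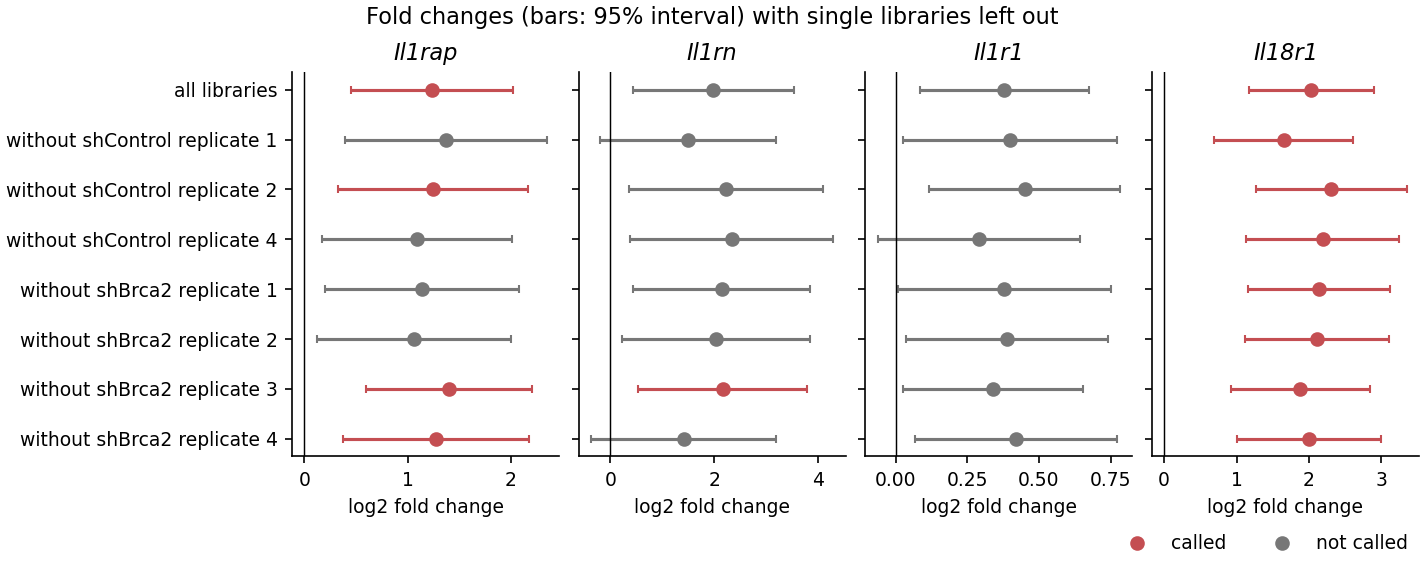
Log2 fold change (shBrca2 over shControl, bars 95% interval) of Il1rap, Il1rn, Il1r1 and Il18r1 with all libraries and with each library left out in turn, called fits in red. The x axes differ in range between panels. Il18r1 is called throughout and Il1rap in 3 of 7 fits.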

How the data were processed

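Sorted CAFs from KPC-shControl (n = 3) and KPC-shBrca2 (n = 4) tumors were compared. The authors deposited raw counts per gene symbol, whole numbers that were not normalized. The submitters' processing notes name bcl2fastq, cutadapt, STAR 2.4.2a, HTSeq, DESeq2 and mm10; strand handling, annotation and collapsing of molecular barcodes are not given in the sources used here, so PCR copies may be included. DESeq2 1.42.0 (R 4.3.3) was run on all 12771 genes with a likelihood ratio test of the group, the test the study's methods name, default median-of-ratios size factors and no covariate, and with Benjamini-Hochberg adjustment over all genes. Intervals are the log2 fold change ± 1.96 standard errors, and fold changes were not shrunken. Log2 ratios of genes used a pseudocount of 1. Groups came from the recorded Brca2 status of the KPC cells. The study used separate mice, but the labels do not tie libraries to mice, so p-values measure the spread between these libraries.

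Alternatives were TMM size factors, edgeR 4.0.16 (quasi-likelihood), a filter of 10 counts in 3 libraries, no independent filtering, no Cook's cutoff, a Wald test, a replicate block, and leaving out each library. The code was tested on simulated data. The members and lists were chosen with earlier results of these data known. Named were all 9 measured members, up to 5 called genes per list and direction with the largest change, Il6 and Lif; the other genes of the lists, the markers and Casp1 and Myd88 were named after their values were seen. Genes most like Il1rap were taken from those with a mean normalized count over 20. Positions and promoters came from RefSeq GRCm38.p6, and exon overlaps from GENCODE vM39 (GRCm39), a different build from that of the counts.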

Additional observations from a re-analysis of the deposited data

Results flagged for a closer look

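2 values were flagged among 25 genes examined, each a shBrca2 library far from the other 3; chance flags about 1 group in 20. Il6 was at 1098 normalized counts in shBrca2 replicate 2, against 319 to 402 in the other shBrca2 libraries, a gap of 0.893 of the group's range, past Dixon's critical value. Lif was at 402 in the same library, a gap of 0.928 of the range. That library also held the highest sum of neutrophil markers, 110.7 normalized counts, and the highest Il1rl1, 39.1. Whether these values are linked was not tested.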

How the results depend on the processing

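The count of 1154 genes called ran from 615 to 1305 when single libraries were left out, shBrca2 replicate 1 giving the 615, shControl replicate 1 giving 630 and shBrca2 replicate 4 giving 662. The count of family members called ran from 0 to 2, and that of pathway list genes, 17 with all libraries, from 7 to 21 (9 without shControl replicate 1, 7 without shControl replicate 4, 8 without shBrca2 replicate 1 and 8 without shBrca2 replicate 4). With the replicate block, 491 genes, 0 members and 10 list genes were called. Among the genes whose call it ended were Il1rap (DESeq2 adjusted p = 0.18), Irak3 (0.25) and Has1 (0.50). The block spends degrees of freedom on the replicate numbers. With no shControl library of its number, shBrca2 replicate 3 adds nothing to the group difference there. How much of the drop in calls comes from this loss of power was not tested. No sign was seen that the shared numbers pair the libraries. Deviations from the group means correlated at -0.091, -0.127 and -0.14 over 9062 genes for numbers 1, 2 and 4. No library correlated best with its own number. With 3 shControl and 4 shBrca2 libraries, a weak shared effect could go unseen. The other 6 alternatives called 1119 to 1170 genes and 1 member, Il1rap.

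Signs turned for Il1rl1 (0.09 without shControl replicate 1, 0.01 without shBrca2 replicate 1), Il18bp (0.17 without shControl replicate 4, 0.07 without shBrca2 replicate 1, 0.11 without shBrca2 replicate 4) and Lif (-0.05 without shControl replicate 1, -0.47 without shBrca2 replicate 2), none of them called. Their leave-one-out ranges were -0.73 to 0.09, -0.23 to 0.17 and -0.47 to 0.29. The cause was not tested. The low-count filter removed Il1b and Il1rn, which gave no value there. At 1 to 21 raw counts per library, depth limits both genes.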
